A study of Saccharomyces cerevisiae with 6 samples.

Results

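The comparison described here set an aft1aft2 double mutant of the budding yeast Saccharomyces cerevisiae against its wild type, with both described as minus iron. By the labels, the double mutant is Y18aft2delta (aft1aft2), the single mutant is Y18 (aft1), and the wild type is CM3260 (wt). Its members are the 2 samples, called experiments 1 and 2, whose titles pair wt with aft1aft2, out of 6 samples in the series. The other 4 pair wt with aft1 or aft1 with aft1aft2 and were used here for the error estimate and for the test of the difference between both mutants. Total RNA of exponentially growing cells was copied and hybridised to nylon membranes that carry DNA of yeast genes, and each sample holds 1 log ratio for each of 6084 spots. Apart from delta in the name Y18aft2delta, the labels do not say how the mutations were made or how many clones were used. The mutations and any other difference between the strains therefore cannot be told apart.

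Aft1 and its paralogue Aft2 are transcription factors that move into the nucleus when iron is scarce and switch on genes for taking up iron and for drawing it from stores. Their main targets are a reductive uptake route at the plasma membrane, made of ferric reductases, an oxidase that needs copper and a permease, and a route for siderophores, which are iron chelators that other microbes release. Aft2 overlaps with Aft1 in its targets and is known for genes of iron stores inside the cell, such as the vacuole.

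Every value below is a log2 ratio of aft1aft2 over wt, centred on the median of its experiment, so it states a level relative to the typical spot. The authors' base of the logarithm and direction of the ratio were not stated. Base 2 was assumed, and every fold rests on that. The direction taken here is likely from the order of strains in the titles and from the low values of the uptake genes, which therefore cannot serve as a result of their own. Before centring, the median spot stood at 0.40 in experiment 1 and 0.625 in experiment 2. Fitted changes come with their standard error (SE, n = 2 experiments) from limma, and a spot was called where its Benjamini-Hochberg adjusted p over all spots was under 0.05. The labels describe duplicate hybridisations on separate membranes and mention no separate cultures, so these p-values measure a spread that may be technical.

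Of the 6084 spots, 270 were called, which is 4.44%. The called spots were 44 higher in aft1aft2 (0.723%) and 226 lower (3.71%). All 270 had the same sign in both experiments and a fitted change of more than 2-fold. Of the 226 lower spots, 165 changed by between 2-fold and 4-fold, against 40 of the 44 higher ones. Without centring, 72 spots were called, 36 higher and 36 lower, so the surplus of lower calls rests on the centring. With the direction of the ratio turned, the 226 lower calls would be higher ones and the 44 higher calls lower ones. Leaving out 1 hybridisation gave 559 calls without aft1aft2 replicate 1 and 96 without aft1aft2 replicate 2, 75 without either aft1 replicate, and 125 and 90 without wt replicate 1 and 2. For aft1aft2 against wt, leaving out aft1 replicate 1 or 2 gives the same fit, so the 6 fits are not 6 separate checks. A plain rule with no test, at least 2-fold the same way in both experiments, took 327 spots (5.37%), 65 higher and 262 lower, while 22 spots passed 2-fold in opposite directions. Across spots, which are not independent replicates and share their hybridisations, the experiments correlated with r = 0.449 and rho = 0.349, and 61.1% of spots had the same sign in both.

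**Figure D1:**
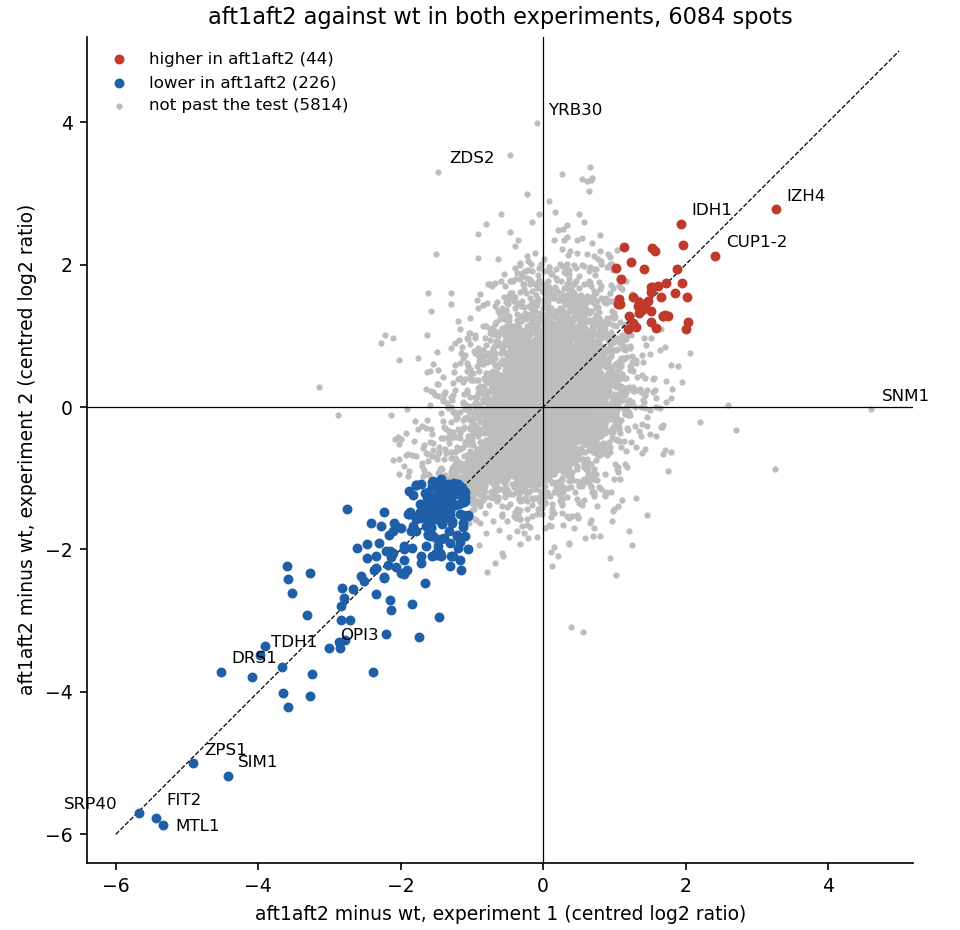
Centred log2 ratio of aft1aft2 over wt for 6084 spots, experiment 1 on the horizontal axis and experiment 2 on the vertical axis. Red points are the 44 spots called higher, blue points the 226 called lower and grey points those that did not pass the limma test, and the dashed line marks equal values. The called spots run along that line at both ends, while spots such as SNM1, YRB30 and ZDS2 lie far from it.

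The values of experiment 2 stepped up in the middle of the spot numbers. The median spot of numbers 1 to 3042 stood at -0.185 in that experiment and that of numbers 3043 to 6084 at 0.235, a gap of 0.42, against 0.03 and -0.02 in experiment 1. Spot numbers follow the systematic gene names, and with them the chromosomes. Accordingly the chromosome medians of experiment 2 ran from -0.315 to -0.155 over chromosomes I to IX and from 0.045 to 0.345 over chromosomes X to XVI. Centring each range of numbers on its own median, an alternative chosen after seeing the data, called 325 spots, 62 higher and 263 lower. It kept 262 of the 270 calls and brought the chromosome medians of the fitted change to between -0.108 and 0.115. No chromosome median reached a 2-fold change in either experiment.

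**Figure D2:**
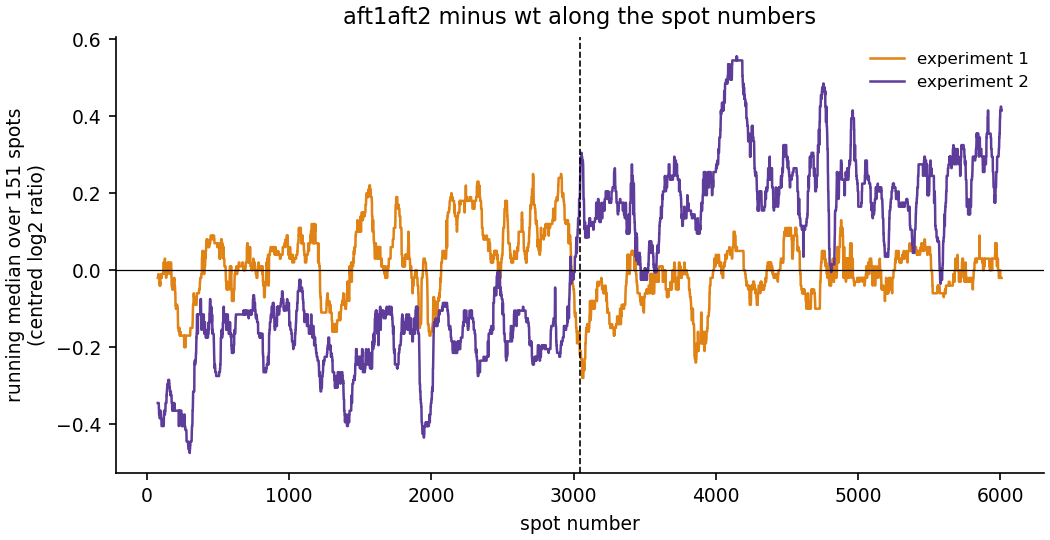
Running median over 151 spots of the centred log2 ratio of aft1aft2 over wt along the spot numbers, orange for experiment 1 and purple for experiment 2. The dashed line marks the border between spots 1 to 3042 and 3043 to 6084, where the values of experiment 2 step up by 0.42 between the medians of both ranges and those of experiment 1 change by -0.05.

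The spots of the mutated genes did not check the labels. AFT1 stood at -0.33 in experiment 1 and -0.86 in experiment 2, and its fitted change of -0.59 ± 0.25 did not pass (limma adjusted p = 0.243). AFT2 stood at -0.40 in experiment 1 and 1.96 in experiment 2, so the experiments disagreed in sign, and its change of 0.78 ± 0.54 did not pass either (adjusted p = 0.441). In aft1 against wt, AFT1 changed by 0.03 ± 0.25 and did not pass (adjusted p = 0.97). What remains of either gene in the mutants is not stated, and why these spots did not separate the strains was not tested. Of 8 genes that commonly mark laboratory strains, 0 passed. Nearest to the threshold was TRP1, a tryptophan synthesis gene, at 1.11 and 1.66 (adjusted p = 0.0672). LEU2 of leucine synthesis stood at 0.33 and 0.79 in aft1aft2 against wt, while its fitted change in aft1 against wt was 2.21 ± 0.28 (adjusted p = 0.0265). The direct test of aft1aft2 against aft1 gave -1.66 ± 0.28 for LEU2 (adjusted p = 0.0397).

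Of the 72 gene lists, siderophore genes had the median farthest from 0, and its sign is that of the direction assumed. Of 7 spots, 6 fell (85.7%), with a median change of -2.70 against 0.02 over all spots, and all 7 were below 0 in both experiments. FIT2, a cell wall mannoprotein that helps retain siderophore iron, stood at -5.43 in experiment 1 and -5.77 in experiment 2. Its fitted change was -5.60 ± 0.24 (limma adjusted p = 0.000703), the third lowest of all spots. FIT3, a mannoprotein of the same family and a neighbour of FIT2 on its chromosome, stood at -4.09 and -3.79 (adjusted p = 0.00359), while the third member, FIT1, stood at -0.21 and -0.74 and did not pass (adjusted p = 0.336). All 4 siderophore transporters were lower in both experiments. ARN2 stood at -2.78 and -3.27 and ARN1 at -2.20 and -3.19, with fitted changes of -3.03 ± 0.25 and -2.70 ± 0.32 (adjusted p = 0.00472 and 0.0145). ENB1, the enterobactin transporter, stood at -1.91 and -2.30 (adjusted p = 0.0123) and SIT1, the ferrioxamine transporter, at -1.19 and -1.99 (adjusted p = 0.0367). Without centring, the calls of ENB1 and SIT1 were lost. Leaving out 1 hybridisation kept at least 5 of these 6 calls.

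The reductive route was lower in part. FET3, the multicopper oxidase, stood at -3.24 in experiment 1 and -3.75 in experiment 2 and changed by -3.49 ± 0.25 (limma adjusted p = 0.00323). FRE1, the main ferric reductase, stood at -2.84 and -3.0 (adjusted p = 0.00476). FTR1, the permease that works with Fet3, stood at -1.29 and -2.09 (adjusted p = 0.0358) but was called in 1 of the 6 fits that leave out 1 hybridisation, the one without aft1aft2 replicate 1. The call of FTR1 was also lost without centring. The other 3 of the 6 genes did not pass. FRE2, a second ferric reductase, stood at -2.02 and -0.52 (adjusted p = 0.158). CCC2, the copper pump that loads Fet3, and ATX1, its copper chaperone, had opposite signs in the experiments, with 0.16 and -1.97 for CCC2 and 0.76 and -1.03 for ATX1. Of the 7 other members of the reductase family, 0 passed. The lowest was FRE7 at -1.03 and -1.14 and the highest FRE4 at 0.57 and 0.85 (adjusted p = 0.078 and 0.164). Low-affinity uptake did not pass in any of its 4 genes, among them FET4, the low-affinity iron transporter, at -0.32 and -0.12.

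Iron handling inside the cell gave single calls. TIS11 (also CTH2), which promotes decay of mRNAs of iron-using proteins, stood at -2.62 in experiment 1 and -1.98 in experiment 2 and changed by -2.30 ± 0.26 (limma adjusted p = 0.0124), while its paralogue CTH1 stood at 0.05 and 0.07. SMF3, a transporter that exports iron from the vacuole, stood at -1.16 and -1.90 (adjusted p = 0.0375). Without centring, the calls of TIS11 and SMF3 were lost. FTH1, the vacuolar iron permease, stood at -0.88 and -1.63 and did not pass (adjusted p = 0.076). The mitochondrial iron carriers MRS3 and MRS4 and the vacuolar importer CCC1 each had opposite signs in the experiments. Of 9 regulators, GRX3, a glutaredoxin that passes the iron signal to Aft1, was called lower at -1.24 and -1.10 (adjusted p = 0.0464), and this call was lost when both ranges of spot numbers were centred apart (fitted change -1.09). Of 14 other genes reported as Aft targets, 3 were lower: PRY1, a secreted sterol-binding protein (-1.54), the vacuolar aminopeptidase APE1 (-1.38) and AKR1, a palmitoyl transferase (-1.23), and 0 were higher. With 1 hybridisation left out, between 0 and 2 of these 3 calls remained, and without centring 0 did. TIS11 was called in each of the 6 such fits, SMF3 in 1 and GRX3 in 0.

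**Figure D3:**
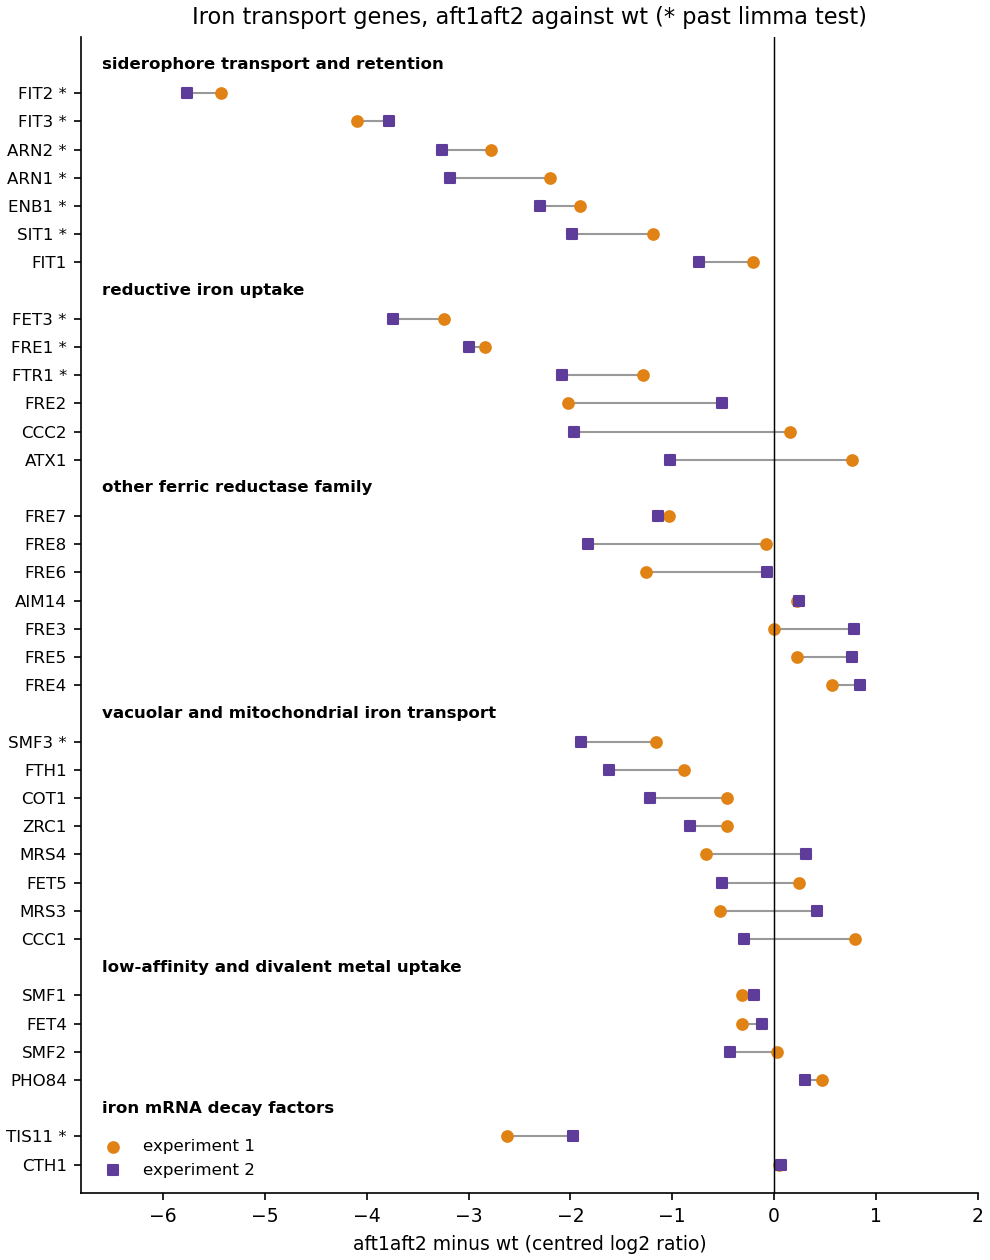
Centred log2 ratio of aft1aft2 over wt for 34 genes of iron transport and its regulation, a circle for experiment 1 and a square for experiment 2 on each line, grouped by role. An asterisk marks spots that passed the limma test, and 11 did. Their place to the left of 0 was part of the basis for the direction assumed. FRE2, CCC2 and ATX1 of the reductive route have widely spread values.

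Over all spots 4.44% were called, so 0 or 1 calls in lists this short say little about genes that use iron. Of 22 genes of iron-sulfur cluster assembly, 1 was higher, ISA1, a mitochondrial assembly factor, at 1.42 in experiment 1 and 1.94 in experiment 2 (fitted change 1.67 ± 0.25, limma adjusted p = 0.0255). The list's median of 0.31 was above that of all spots. Above 0 in both experiments were 13 of its 22 spots, and 1867 of all 6084 spots. In aft1 against wt the list's median was 0.22, and ISA1 changed by 1.64 ± 0.25. The call of ISA1 was lost without aft1aft2 replicate 2, without either aft1 replicate and without wt replicate 2. Of 11 haem genes, 0 passed, the nearest being HEM1, the first enzyme of haem synthesis, at -1.03 and -1.25 (adjusted p = 0.0545), and HMX1, the haem oxygenase, stood at -0.88 and -0.49. Of 26 respiratory chain genes and 6 biotin genes, 0 and 0 passed. Of 19 genes of the tricarboxylic acid cycle, 2 rose (10.5%) and 1 fell (5.26%), against 0.723% and 3.71% of all spots. IDH1 and IDH2, the subunits of mitochondrial isocitrate dehydrogenase, were among the 4 highest of the called spots. IDH1 stood at 1.93 in experiment 1 and 2.58 in experiment 2 and IDH2 at 1.96 and 2.28 (fitted changes 2.25 ± 0.27 and 2.12 ± 0.24, adjusted p = 0.0148 and 0.0123). LSC1, a subunit of succinyl-CoA ligase, was lower at -1.62 and -1.80, and the other 16 of the 19 cycle genes did not pass. The call of LSC1 was lost without centring and with any hybridisation left out other than aft1aft2 replicate 1. LEU1, an iron-sulfur enzyme of leucine synthesis, stood at 1.25 and 1.59 and did not pass (adjusted p = 0.0624).

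Of 12 genes of the regulon of Zap1, the activator that answers low zinc, 5 fell (41.7%) and 0 rose, with a list median of -1.25. ZPS1, a secreted protein that is induced by low zinc, stood at -4.91 in experiment 1 and -5.01 in experiment 2 (fitted change -4.96 ± 0.23, limma adjusted p = 0.000703). The vacuolar zinc exporter ZRT3 stood at -3.31 and -2.92 and the high-affinity zinc importer ZRT1 at -2.84 and -2.80, with fitted changes of -3.11 ± 0.24 and -2.82 ± 0.23. ADH4, an alcohol dehydrogenase, stood at -1.84 and -2.77 and MCD4, an enzyme of GPI anchor synthesis, at -1.59 and -1.81. Without centring, the calls of ADH4 and MCD4 were lost. ZAP1 itself stood at -2.03 and -0.73 and did not pass (adjusted p = 0.0884), and the low-affinity importer ZRT2 stood at -0.42 and 0.03. Leaving out 1 hybridisation kept at least 4 of the 5 calls.

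The highest spot of all was IZH4, a membrane protein of the progestin and adipoQ receptor family linked to zinc. It stood at 3.27 in experiment 1 and 2.78 in experiment 2 (fitted change 3.02 ± 0.25, limma adjusted p = 0.00472). In aft1 against wt its fitted change was 3.98 ± 0.25. Of its 3 paralogues, IZH2 stood at 0.89 and 1.5, IZH3 at 0.38 and 0.90 and IZH1 at 0.20 and -0.20, and 0 of them passed. CUP1-1 and CUP1-2 encode the copper metallothionein in near-identical copies whose signal on a membrane cannot be separated. They stood at 1.95 and 1.75 and at 2.42 and 2.13, and both rose (fitted changes 1.84 ± 0.24 and 2.27 ± 0.23, adjusted p = 0.0194 and 0.00993). In aft1 against wt they changed by 2.15 ± 0.24 and 2.61 ± 0.23. RSC30, a chromatin remodelling subunit whose spot follows those of CUP1, stood at 2.02 and 1.55 (adjusted p = 0.0238). The copper transporters did not pass, with -0.47 and -0.53 for CTR1, the high-affinity importer, and -0.90 and -1.94 for CTR2, the vacuolar one.

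Phospholipid synthesis genes, which share control by inositol and choline, were lower where they were called. Of 16 spots, 5 fell (31.2%) and 0 rose, and the list's median was -1.0. OPI3, a methyltransferase that makes phosphatidylcholine, stood at -3.0 in experiment 1 and -3.39 in experiment 2 (fitted change -3.20 ± 0.28, limma adjusted p = 0.00517). ITR1, the inositol importer, stood at -3.52 and -2.61 and INO1, which makes inositol phosphate, at -2.56 and -2.38 (fitted changes -3.06 ± 0.29 and -2.47 ± 0.29). The choline importer HNM1 stood at -2.34 and -2.10 and the phosphatidylserine synthase CHO1 at -1.44 and -2.10. Without centring, the calls of INO1, HNM1 and CHO1 were lost. CHO2, the methyltransferase before Opi3, stood at -1.48 and -0.93 and did not pass (adjusted p = 0.0587). The regulators of these genes did not pass, with -0.12 and 0.63 for the activator INO2, 0.32 and 0.03 for its partner INO4 and 0.35 and 0.54 for the repressor OPI1. CDS1, the CDP-diacylglycerol synthase, was outside the list and was named after its values were seen, -1.43 and -1.02 (adjusted p = 0.0494). In other lipid pathways the calls were FAS2, a fatty acid synthase subunit (-1.73), ELO2, a fatty acid elongase (-1.53), and ERG20, farnesyl diphosphate synthase (-1.30), while the other 22 of 23 ergosterol genes did not pass. Of the 6 fits with 1 hybridisation left out, FAS2 and ELO2 were called in 2 each and ERG20 and CDS1 in 0. OLE1, the fatty acid desaturase and itself an iron enzyme, stood at 0.45 and 0.44 in aft1aft2 against wt and did not pass.

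Genes of cell wall integrity signalling and wall proteins were lower where they were called, with 1 exception. MTL1, a plasma membrane sensor of wall stress, stood at -5.34 in experiment 1 and -5.87 in experiment 2 and changed by -5.60 ± 0.25 (limma adjusted p = 0.000703). GSC2 (also FKS2), a glucan synthase subunit, stood at -3.58 and -4.21 (fitted change -3.90 ± 0.26). The other 18 of 20 genes of wall integrity signalling did not pass. Of 33 wall proteins, 11 fell (33.3%) and 1 rose, and the list median of -0.58 was -0.06 without centring. SIM1 and UTH1, which belong to the SUN family of wall proteins, stood at -4.43 and -5.18 and at -2.82 and -2.54 (fitted changes -4.81 ± 0.29 and -2.68 ± 0.24). Other called members were UTR2 and SCW11, which act on wall glycans, the mannoproteins CWP1, CCW12 and AGA1, the PIR proteins CIS3, PIR1 and HSP150, and DSE2, a daughter-cell protein, with fitted changes between -1.93 and -1.23. NCA3, another SUN family protein, was the 1 higher call, at 1.13 and 2.25 (adjusted p = 0.0443). Leaving out either aft1 hybridisation kept 3 of these 12 calls, namely SIM1, UTH1 and UTR2. ECM33, a wall mannoprotein outside the list, stood at -2.37 and -2.30, and its neighbour on the chromosome, SLM4, stood at -2.17 and -1.80. Both were named after their values were seen.

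Mannose attachment gave 2 calls, both lower. PMT1 and PMT2, the mannosyltransferase pair of the endoplasmic reticulum, stood at -1.49 and -1.86 and at -1.19 and -1.09 (limma adjusted p = 0.0255 and 0.0495), of 23 genes of mannosylation and N-glycosylation. The call of PMT2 was lost when both ranges of spot numbers were centred apart, where its change was -1.06, and PMT1 was called in 1 and PMT2 in 0 of the 6 fits with 1 hybridisation left out. Enzymes that make GDP-mannose, the donor of mannose, were named after their values were seen. PMI40 stood at -1.95 and -2.35, SEC53 at -1.56 and -2.09 and PSA1 at -2.23 and -2.39 (adjusted p = 0.0119, 0.0228 and 0.0106).

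All 4 genes of the alpha mating type fell and 0 of 7 genes of the a mating type passed. SAG1, the alpha-agglutinin, stood at -2.71 in experiment 1 and -2.99 in experiment 2 (fitted change -2.85 ± 0.25, limma adjusted p = 0.00517). The pheromone genes MF(ALPHA)1 and MF(ALPHA)2 stood at -1.44 and -1.46 and at -1.21 and -1.81, and STE3, the receptor for a-factor, at -1.34 and -1.34. Without centring, 1 of these 4 calls remained, that of SAG1. Leaving out 1 hybridisation kept between 1 and 4 of these calls, and the 1 that always remained was SAG1. Of the a genes, MFA1, a pheromone gene, stood highest at 0.82 and 1.07 and BAR1, a protease that degrades alpha-factor, lowest at -1.84 and -0.68. Of 15 haploid genes of the pheromone pathway and 19 meiosis genes, 0 and 0 passed.

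Glycolysis was lower over most of its length. Of 17 spots, 10 fell (58.8%) and 0 rose, the median change was -1.53, and 15 of the 17 were below 0 in both experiments. TDH1, a glyceraldehyde-3-phosphate dehydrogenase, stood at -3.97 in experiment 1 and -3.49 in experiment 2 (fitted change -3.73 ± 0.25, limma adjusted p = 0.00284). Its paralogues TDH2 and TDH3 stood at -1.95 and -2.00 and at -1.82 and -1.24. The enolase genes ENO1 and ENO2 stood at -3.27 and -2.34 and at -2.13 and -2.85. FBA1, the aldolase, stood at -2.67 and -2.56 (fitted change -2.62 ± 0.24). Signal of such close paralogues can cross between spots on a membrane, so their values are not independent. The other calls were CDC19, pyruvate kinase (-1.68), PGK1, phosphoglycerate kinase (-1.66), HXK2, hexokinase (-1.62), and GPM1, phosphoglycerate mutase (-1.51). PFK1 and PFK2, the phosphofructokinase subunits, stood at -0.17 and -0.64 and at -0.84 and 0.12 and did not pass. Without centring, the list median was -1.02 and 3 of the 10 calls remained. Leaving out 1 hybridisation kept between 5 and 10 of the 10 calls. TDH1, TDH2, ENO1, ENO2 and FBA1 remained in each of the 6 such fits.

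Neighbouring carbon pathways gave fewer calls. PDC1, the main pyruvate decarboxylase, was lower at -1.48 and -1.55 (limma adjusted p = 0.032), alone among 14 genes of pyruvate decarboxylation and alcohol formation. In the pentose phosphate pathway, GND1, a phosphogluconate dehydrogenase, and TKL1, a transketolase, were lower (-1.66 and -1.46), and NQM1, a transaldolase paralogue, was higher (1.49). HXT6, a high-affinity hexose transporter, was lower at -1.39 and -1.34, 1 call of 19 transporters. In glycerol metabolism GCY1, a glycerol dehydrogenase, rose (1.60) and DAK1, a dihydroxyacetone kinase, fell (-1.22). Of 13 genes of the glyoxylate cycle and gluconeogenesis and 12 of galactose and maltose use, 0 and 0 passed. ATP2, a subunit of the ATP synthase, was lower at -1.72 and -1.09, and PMA1, the proton pump of the plasma membrane, at -1.51 and -2.05. Few of these calls remained with 1 hybridisation left out. In the 6 such fits NQM1 and PMA1 were called in 2, ATP2 in 0, and PDC1, GND1, TKL1, HXT6, GCY1 and DAK1 in 1 each.

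**Figure D4:**
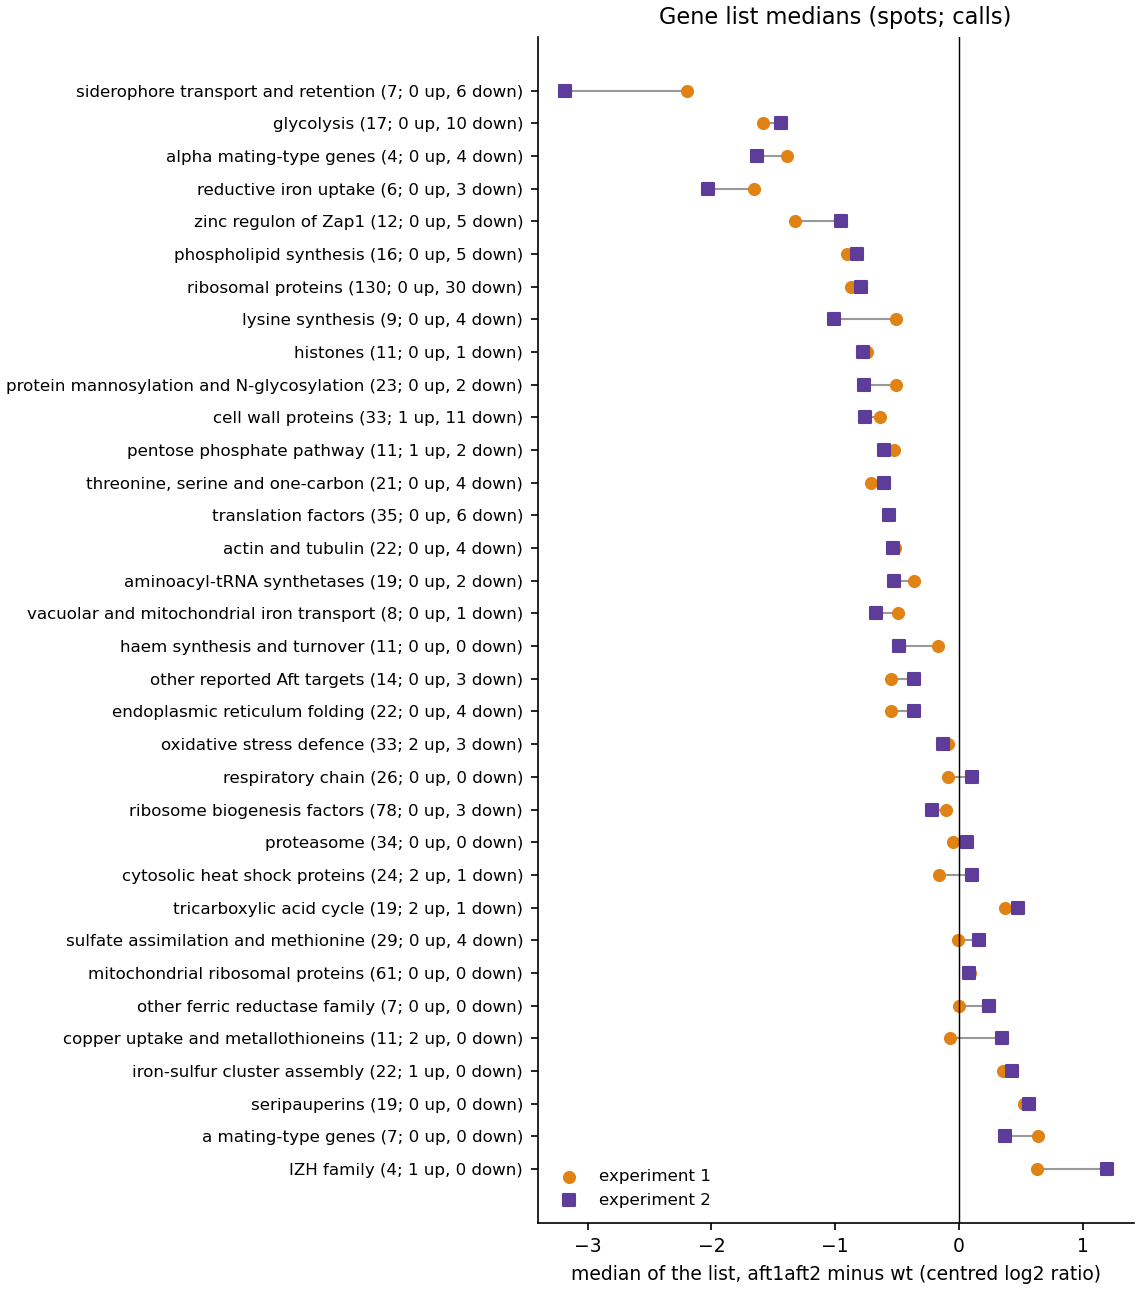
Median centred log2 ratio of aft1aft2 over wt for 34 gene lists, a circle for experiment 1 and a square for experiment 2, with the number of spots and of calls beside each name. Siderophore genes, glycolysis, alpha mating-type genes and reductive uptake lie at the top with medians under -1 in both experiments, and the IZH family lies at the bottom.

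Cytosolic ribosomal proteins were lower as a broad, shallow group. Of 130 spots, 30 fell (23.1%), 0 rose, the median change was -0.83, and 114 were below 0 in both experiments. RPL8A stood at -2.15 in experiment 1 and -2.71 in experiment 2 and its paralogue RPL8B at -2.15 and -2.03 (fitted changes -2.43 ± 0.27 and -2.09 ± 0.25, limma adjusted p = 0.0114 and 0.0137). RPS14A stood at -2.06 and -2.25 and RPL16A at -1.95 and -2.15, and the smallest called change was -1.15 for RPS13. Leaving out 1 hybridisation kept between 5 and 24 of the 30 calls, and RPL8A, RPL8B, RPL16A, RPL30 and RPS14A remained in each of the 6 fits. As deposited, without centring, the median of the list was -0.31 and 2 of the 30 calls remained. Of the mitochondrial ribosomal proteins 0 of 61 were called, with a median of 0.10, and the difference between both lists was not tested. ASC1, a protein of the small ribosomal subunit outside the list, stood at -2.24 and -2.41 and was named after its values were seen.

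Other parts of protein synthesis showed lower calls as well, though without centring the median of the translation factors was -0.05. Of 35 translation factors, 6 were lower (17.1%) and 0 higher: the elongation factors YEF3 (-1.55), EFT1 and EFT2, which encode the same protein (-1.48 and -1.45), TEF4 and TEF1 (-1.28 and -1.16), and the initiation factor SUI2 (-1.14). With 1 hybridisation left out, between 0 and 3 of these calls remained. Of 19 aminoacyl-tRNA synthetases, DED81 for asparagine and THS1 for threonine were lower. Ribosome biogenesis held 3 calls of 78 spots, close to the share over all spots, yet 2 of them were extreme. SRP40, a nucleolar phosphoprotein, was the lowest spot of the membrane at -5.68 in experiment 1 and -5.71 in experiment 2 (fitted change -5.70 ± 0.24, limma adjusted p = 0.000703), and DRS1, a nucleolar helicase, stood at -4.52 and -3.72 (fitted change -4.12 ± 0.28). NOP1, the fibrillarin, was the third at -1.54 and -1.36. Of 27 subunits of RNA polymerases I and III, 0 passed.

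Folding in the endoplasmic reticulum gave 4 lower calls of 22, with a list median of -0.40 that turned to 0.12 without centring. KAR2, the Hsp70 chaperone of that compartment, stood at -2.75 in experiment 1 and -1.44 in experiment 2 and PDI1, the disulfide isomerase, at -2.07 and -1.68 (fitted changes -2.10 ± 0.35 and -1.88 ± 0.25, limma adjusted p = 0.0323 and 0.0204). EUG1, a paralogue of PDI1, and LHS1, a second Hsp70, changed by -1.60 and -1.31. Between 0 and 3 of these calls remained with 1 hybridisation left out. ARF1 and ARF2, GTPases of vesicle budding, stood at -1.62 and -1.69 and at -1.79 and -1.74. ACT1, the actin gene often used as a loading control, stood at -1.10 and -1.54 (limma adjusted p = 0.0436). TUB1 (alpha-tubulin), COF1 (cofilin) and ARC40 changed by -1.52, -1.33 and -1.44. Without centring, the calls of TUB1, COF1 and ARC40 were lost. Those of COF1 and ARC40 were lost whichever hybridisation was left out, and that of TUB1 unless it was aft1aft2 replicate 1. The call of ARC40 was also lost with scaling, quantile normalisation, the 2 columns alone, the robust prior and both ranges of spot numbers centred apart. HTB2, a histone H2B gene, was lower at -1.31 and -1.52, 1 call of 11 histone genes, and POL30, the sliding clamp of DNA replication, stood at -1.57 and -1.69. RNR2, the small subunit of ribonucleotide reductase that carries its iron centre, was lower at -1.28 and -1.36 (adjusted p = 0.0375). Of the genes outside that compartment, ACT1, ARF1, HTB2, POL30 and RNR2 were each called in 1 of the 6 fits with 1 hybridisation left out and ARF2 in 3.

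Amino acid and nucleotide synthesis showed calls in a few pathways. Of 9 lysine genes, 4 fell and 0 rose: the homocitrate synthases LYS20 and LYS21, LYS9 and LYS12. LYS20 stood at -2.18 in experiment 1 and -2.22 in experiment 2 (fitted change -2.20 ± 0.23, limma adjusted p = 0.00993), and LYS4, the iron-sulfur enzyme of the pathway, stood at -0.36 and -0.07 and did not pass. In threonine, serine and one-carbon metabolism 4 of 21 fell, and the list median of -0.57 was -0.06 without centring. SHM2, the cytosolic serine hydroxymethyltransferase, stood at -2.47 and -2.13, HOM6, homoserine dehydrogenase, at -2.30 and -1.92, THR1, homoserine kinase, at -1.31 and -1.46 and HOM2 at -1.25 and -1.07. The call of HOM2 was lost when both ranges of spot numbers were centred apart, where its change was -1.08. The list of 29 sulfur genes held 4 lower calls (13.8%), against 3.71% of all spots, and 0 higher. Its median was 0.05, with 11 spots above 0 in both experiments and 10 below. The 4 calls belong to the methyl cycle, which was not a list of its own. They were SAH1, S-adenosylhomocysteine hydrolase (-1.74 and -3.23), the S-adenosylmethionine synthetases SAM1 (-1.31 and -2.23) and SAM2 (-2.42 and -1.63), and the methionine synthase MET6 (-1.78 and -1.10). ADE17, a late enzyme of purine synthesis, stood at -2.87 and -3.31 (fitted change -3.09 ± 0.26, adjusted p = 0.00472). ARO8, an aromatic aminotransferase, and GAP1, the general amino acid permease, changed by -1.65 and -1.41. Without centring, 0 of the 4 lysine, 0 of the 4 one-carbon and 0 of the 4 methyl cycle calls remained. Those of ARO8 and GAP1 were lost as well. Between 1 and 4 of the 4 lysine calls, 2 or 3 of the 4 one-carbon calls and between 1 and 3 of the 4 methyl cycle calls remained with 1 hybridisation left out. Synthesis of glutamate, glutamine and proline, of arginine, and of the branched-chain amino acids held 0 calls of 14, 0 of 11 and 0 of 12.

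Stress genes gave calls in both directions. Of 33 genes of oxidative stress defence, 2 rose and 3 fell. GPX2, a glutathione peroxidase, stood at 1.85 in experiment 1 and 1.61 in experiment 2 and CTT1, the cytosolic catalase and a haem enzyme, at 1.71 and 1.30 (limma adjusted p = 0.0207 and 0.0314). TRX1, a cytosolic thioredoxin, stood at -2.51 and -2.45, AHP1, a peroxiredoxin that uses thioredoxin, at -2.35 and -2.26, and GTT1, a glutathione transferase, at -1.13 and -1.69. Among 24 heat shock proteins, HSP78 of the mitochondria and HSP42 were higher (1.48 and 1.42), and SSB1, which works at the ribosome, was lower (-1.51). TSL1, a subunit of trehalose synthase, was higher at 1.54 and 1.69, and UGP1, which makes UDP-glucose, was lower at -1.15 and -1.14. PDR3, an activator of drug pumps, was higher at 1.88 and 1.94 (adjusted p = 0.014), and 0 of the other 17 genes of its network passed. ROX1, the repressor of hypoxic genes, was higher at 1.35 and 1.48, 1 call of 19 hypoxic genes. TRX1, AHP1 and PDR3 were called in each of the 6 fits with 1 hybridisation left out. In those fits GPX2 was called in 2, UGP1 in 0, and CTT1, GTT1, HSP78, HSP42, SSB1, TSL1 and ROX1 in 1 each. The proteasome held 0 calls of 34 and the cyclins 0 of 24.

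Several extreme spots belonged to no list. OSW7 stood at -3.65 and -4.02, RFM1, a subunit of a repressor of meiotic genes, at -3.28 and -4.06, TOM1, a ubiquitin ligase, at -3.67 and -3.65, and ASF1, a histone chaperone, at -3.90 and -3.36. Their fitted changes ran from -3.84 to -3.63 (limma adjusted p at most 0.00359). In aft1 against wt OSW7, RFM1, TOM1 and ASF1 changed by -3.63, -3.54, -1.94 and -2.92. Of the extreme spots above, SRP40, MTL1 and GSC2 changed by -4.67, -4.47 and -3.38 in aft1 against wt, and TDH1 by -0.46. Among the highest spots outside the lists were AIM17 at 1.53 and 2.24, RTC3 at 1.57 and 2.20 and the kinase gene FRK1 at 1.24 and 2.04. Of the 270 calls, 157 were list members and 18 had no gene name. In the 6 fits that each leave out 1 hybridisation, 63 of the 270 calls passed every time, 58 lower and 5 higher. The 5 were IZH4, CUP1-2, IDH1, IDH2 and PDR3.

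The third comparison, aft1aft2 against aft1, tests which of these changes differ between both mutants. It shares the aft1aft2 hybridisations with the comparison against wt, so a low signal there lowers both. Across all spots it called 172 (2.83%), 158 lower in aft1aft2 (2.6%) and 14 higher (0.23%). Without centring it called 52 spots, and leaving out 1 hybridisation gave 503 and 90 calls without aft1aft2 replicate 1 and 2, 14 and 13 without aft1 replicate 1 and 2, and 256 without either wt replicate. ADE17 and SHM2 passed the direct test in each of these fits. For this direct test, leaving out wt replicate 1 or 2 gives the same fit. The uptake genes gave 0 calls. FIT2 changed by -5.60 ± 0.24 in aft1aft2 against wt and by -5.85 ± 0.24 in aft1 against wt, and the direct difference was 0.25 ± 0.24 (limma adjusted p = 0.584). FET3 changed by -3.49 ± 0.25 in aft1aft2 and by -3.43 ± 0.25 in aft1, with a difference of -0.06 ± 0.25 (adjusted p = 0.899). FTR1 changed by -1.69 ± 0.29 in aft1aft2 and by -0.10 ± 0.29 in aft1, and the difference of -1.59 ± 0.29 lay at the threshold (adjusted p = 0.0502).

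Iron handling inside the cell gave some direct calls. SMF3 changed by -1.53 ± 0.27 in aft1aft2 and by 0.78 ± 0.27 in aft1, a difference of -2.31 ± 0.27 (limma adjusted p = 0.013). For TIS11 the difference was -1.55 ± 0.26 (adjusted p = 0.0403), and FTH1 and MRS4 were lower than in aft1 as well, with differences of -1.76 and -1.85 (adjusted p = 0.0383 and 0.0468). PRY1, APE1, AKR1 and the heat shock gene HSP26 of the other reported targets were also lower than in aft1, with differences of -2.25, -2.59, -1.44 and -1.52. Each of these calls, from SMF3 to HSP26, was lost when either aft1 hybridisation was left out. Those of TIS11, FTH1, MRS4, AKR1 and HSP26 were also lost without centring, and that of TIS11 with columns scaled. COT1, a vacuolar zinc and cobalt importer, was near the threshold at -1.47 ± 0.27 (adjusted p = 0.0502).

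Glycolysis was lower than in aft1 at 11 of 17 spots (64.7%), against 2.6% of all spots. TDH1 changed by -3.73 ± 0.25 in aft1aft2 and by -0.46 ± 0.25 in aft1, a difference of -3.26 ± 0.25 (limma adjusted p = 0.00466). ENO1 changed by -2.81 ± 0.29 in aft1aft2 and by 0.05 ± 0.29 in aft1. PGK1 changed by -1.66 ± 0.24 in aft1aft2 and by 0.97 ± 0.24 in aft1. The list's median change was -1.53 in aft1aft2 and -0.05 in aft1. GLK1 and HXK1, which phosphorylate glucose, were not called against wt and were lower than in aft1 (differences -2.46 ± 0.26 and -1.88 ± 0.23). Both direct calls were lost when either aft1 hybridisation was left out, and that of HXK1 also without centring. The direct call of TDH1 was lost without aft1 replicate 1. TDH3 was the 1 gene called against wt and not against aft1 (-0.84 ± 0.25, adjusted p = 0.14).

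**Figure D5:**
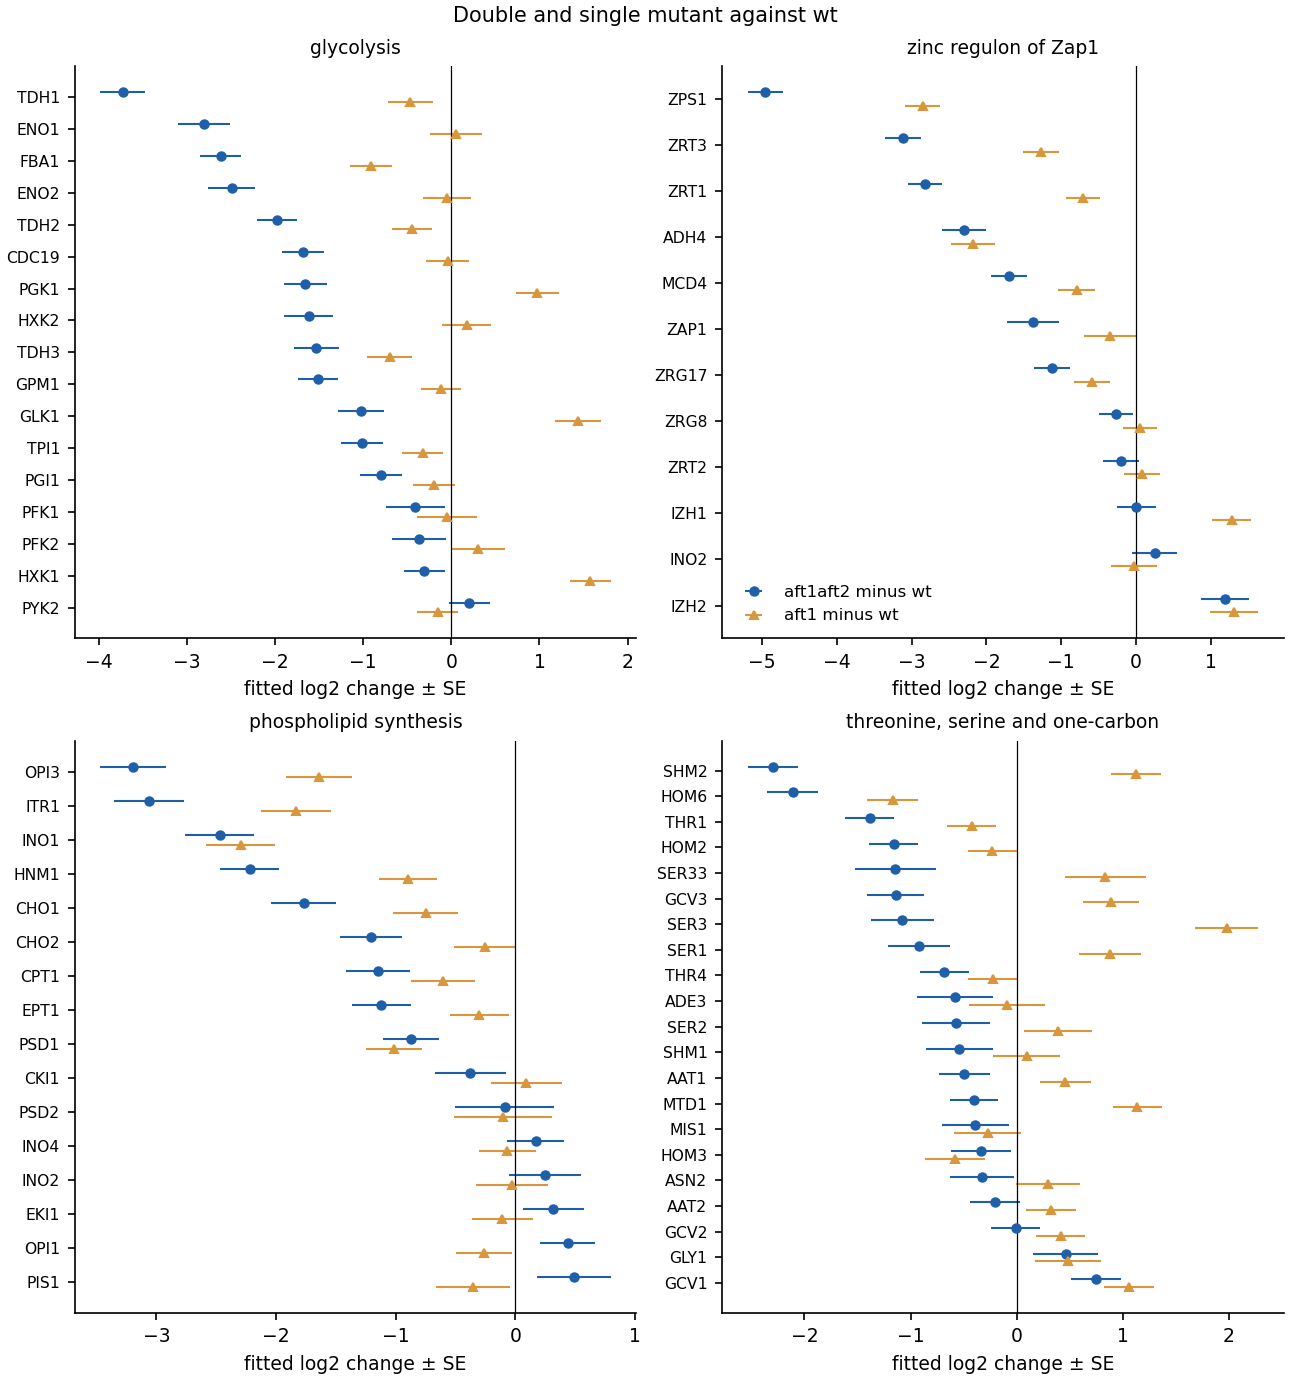
Fitted log2 change of aft1aft2 against wt (blue circles) and of aft1 against wt (orange triangles) with standard errors (n = 2) for 4 gene lists. Both contrasts share the wt hybridisations. TDH1 and ENO1 lie near 0 in aft1 and far below it in aft1aft2, and SHM2 and SER3 lie above 0 in aft1 and below it in aft1aft2.

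Other groups lower than in aft1 were smaller. In the zinc regulon ZPS1, ZRT3 and ZRT1 differed by -2.11 ± 0.23, -1.84 ± 0.24 and -2.11 ± 0.23 (limma adjusted p = 0.0109, 0.0191 and 0.00964), while ADH4 differed by -0.13 ± 0.29. One-carbon genes gave 5 calls: SHM2 (-3.42), the serine synthesis genes SER3 (-3.06) and SER1 (-1.80), GCV3 of the glycine cleavage system (-2.03) and MTD1, a methylene-tetrahydrofolate dehydrogenase (-1.54). SHM2 stood at -2.47 and -2.13 in aft1aft2 against wt and at 1.04 and 1.2 in aft1 against wt. The direct calls of ZPS1, ZRT3, ZRT1, SER3, SER1, GCV3 and MTD1 were lost when either aft1 hybridisation was left out. Those of ZPS1, ZRT3, SER1, GCV3 and MTD1 were also lost without centring. Without aft1aft2 replicate 2, those of SER1, GCV3 and MTD1 were lost as well. ADE17 stood at -2.87 and -3.31 in aft1aft2 and at 0.83 and 0.97 in aft1, a difference of -3.99 ± 0.26 (adjusted p = 0.00317). OLE1 changed by 0.44 ± 0.25 in aft1aft2 and by 3.51 ± 0.25 in aft1, a difference of -3.08 ± 0.25 (adjusted p = 0.005). The direct call of OLE1 was lost without aft1 replicate 2. HSP150 changed by -1.33 ± 0.23 in aft1aft2 and by 2.03 ± 0.23 in aft1, so its values in both mutants lay on opposite sides of wt. PMA1 changed by -1.78 ± 0.26 in aft1aft2 and by 0.50 ± 0.26 in aft1 (difference -2.28 ± 0.26, limma adjusted p = 0.0118). At that standard error the side of wt on which PMA1 lay in aft1 is not settled. Its direct call was lost when either aft1 hybridisation was left out.

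Ribosomal proteins gave 2 calls of 130 in the direct test, RPL8A (-1.69 ± 0.27) and RPL8B (-1.68 ± 0.25). Both were lower than in aft1, a share of 1.54% against 2.6% of all spots. Both calls were lost without centring, without aft1aft2 replicate 2 and without either aft1 replicate. The median of the ribosomal protein list was -0.83 in aft1aft2 against wt and -0.93 in aft1 against wt, which share the wt hybridisations. Higher than in aft1 were GPX2 (1.28 ± 0.23), the copper importer CTR1 (1.34 ± 0.23), SPL2 of the phosphate regulon (1.70 ± 0.27) and DNA2, an iron-sulfur nuclease (1.48 ± 0.27), with limma adjusted p-values of 0.0479, 0.0403, 0.0333 and 0.0486. These higher calls were each lost without centring, without either aft1 replicate and without aft1aft2 replicate 2. Those of GPX2 and DNA2 were also lost with the robust prior and without aft1aft2 replicate 1, and that of GPX2 with scaling and quantile normalisation. CTR1 changed by -0.50 ± 0.23 in aft1aft2 and by -1.84 ± 0.23 in aft1. Some spots carried an ID with no symbol in the gene tables. Of these, YAR010C stood at -2.11 and -2.06 in aft1aft2 against wt and at 1.80 and 1.83 in aft1 against wt, and YJR028W stood at -1.99 and -1.70 in aft1aft2 against wt and at 1.72 and 2.14 in aft1 against wt.

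Some spots differed widely between the experiments. SNM1 stood at 4.61 and -0.03 in experiments 1 and 2 and SHE3 at 3.25 and -0.87, while YRB30 stood at -0.08 and 3.99 and ZDS2 at -1.47 and 3.31. Their standard errors lay between 0.86 and 1.08, against a median of 0.268 over all spots, and 0 of these passed. Genes on more than 1 spot give a further check. Both spots of APE2, BUD3, MOB2 and SYP1 held identical values in both experiments, so these pairs cannot check agreement between spots. In fitted change PTK1 had 1 spot at 1.35 and another at -0.79, and YIR043C had 1 spot at 1.73, which was called, and another at -0.26, which was not.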

How the data were processed

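Per the labels, RNA from a hot phenol extraction was copied and hybridised to GeneFilters membranes in duplicate, and images were quantified with PATHWAYS 3. Each sample's deposited table holds 1 log ratio per spot, treated here as log2. The sources used here give no base, direction or normalisation of these ratios. Signals of single membranes were not used here, so detection limits are unknown, and the number of arrays limits the precision.

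Within each experiment the 3 deposited ratios added up within 0.01 at all 6084 spots, so 6 hybridisations, 2 per strain, underlie the 6 samples. Ratios were turned to mutant minus wild type and centred on the column median, and strain levels were obtained by least squares. The fit used limma 3.58.1 in R 4.3.3 with strain and experiment as terms, which left 2 residual degrees of freedom (prior degrees of freedom 4.25). P-values are two-sided with Benjamini-Hochberg adjustment over all spots at 0.05, and spots were not filtered. Each ratio was taken within 1 experiment, so experiment pairs the strains and is a block.

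Of the spots, 5523 had 1 gene name and 561 none. Names come from the platform annotation, updated through the RefSeq gene table. Alternatives were no centring, scaling, quantile normalisation, the 2 columns alone, no block, a robust prior, each hybridisation left out, named spots only, spots averaged by gene, and fold thresholds. Members and gene lists were chosen with earlier results of these data known. Genes were named by rule: the 15 highest and 15 lowest calls, called list members, every member of lists of up to 12 genes, the 3 highest and 3 lowest members of longer lists, the 5 widest gaps between experiments in each direction, the mutated and marker genes, and genes whose spots disagreed. Not all genes that the rule covers are printed. APE2, ASC1, BUD3, CDS1, CHO2, ECM33, GCV3, GLK1, HSP26, INO4, MOB2, MTD1, PFK1, PMI40, PSA1, SEC53, SER1, SER3, SLM4, SPL2, SYP1, YAR010C and YJR028W were named after their values were seen.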

Additional observations from a re-analysis of the deposited data

How the results depend on the processing

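Of the 210 named spots, 149 were called, and 0 of these calls changed sign under any alternative run. Spots called in aft1aft2 against wt numbered 270, 44 higher and 226 lower. Without centring (values as deposited) they numbered 72, 36 higher and 36 lower, of which 69 were among the 270. With the 2 columns alone there were 157, 23 higher and 134 lower. Experiment pairs the strains, and with no replicate block 940 spots were called, 322 higher and 618 lower, including all 270. The mean of each experiment had already been removed from the strain levels before the fit. Dropping the block therefore left the residuals unchanged and only raised the residual degrees of freedom. Counts with no block, here and below, cannot show what ignoring the pairing does. At least 2-fold in both experiments, with no test, held for 327 spots, 65 higher and 262 lower. Scaling, quantile normalisation, the robust prior, named spots only and averaging by gene gave between 254 and 266 calls. With 1 hybridisation left out the count ran from 75 to 559, from 6 to 287 higher and from 69 to 272 lower. A fit with 1 hybridisation less has fewer residual degrees of freedom, and 38 of the 270 calls passed in 0 of the 6 such fits. Spots called in aft1aft2 against aft1 numbered 172, 14 higher and 158 lower, but 52, 2 and 50 without centring and 950, 315 and 635 with no replicate block. Their higher calls numbered 23 with columns scaled, 29 after quantile normalisation, 9 with the robust prior and 32 with both ranges of spot numbers centred apart. With 1 hybridisation left out these counts ran from 13 to 503, from 0 to 255 higher and from 13 to 248 lower. Among uncalled named spots, 27 changed sign under at least 1 alternative, 18 of them without centring. Averaging spots by gene gives no count of calls shared with single spots, and chromosome medians were not recomputed beyond the centring of both ranges.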
